A study of Mus musculus with 12 samples.

Results

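Gfap and 9 further genes that astrocytes raise when they become reactive were followed in cortex of mice with and without mouse Grn. They were chosen by symbol as Vim, Serpina3n, Lcn2, Cd44, Osmr, Cp, Steap4, S1pr3 and Hspb1 beside Gfap, and all 10 were found among the 27179 genes counted. Of the 10 genes, 9 passed the filter on low counts and were tested with 15298 genes in all, and Lcn2 did not pass. RNA sequencing was done on cortex from 12 mice, with 4 libraries in each of 3 groups. MUT mice (Grn-/-;GRNmEx5) lacked mouse Grn and carried a humanized mutant progranulin allele, and were 272 to 309 days old, with 3 labelled female and 1 labelled male. KO mice (Grn-/-) lacked mouse Grn without that allele and were 282 to 308 days old, with 2 of each labelled sex. WT mice (Grn+/+) kept mouse Grn, with 1 labelled female of 287 days (WT 1) and 3 labelled males of 375 days (WT 2, WT 3 and WT 4). Absence of mouse Grn was thus shared by MUT and KO, and both were set against the same WT libraries.

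Astrocytes support neurons and respond to injury, disease or inflammation by becoming reactive, a state known for a denser intermediate filament network in which GFAP joins vimentin. Signals of the interleukin-6 family act through receptors such as that for oncostatin M and the transcription factor STAT3, and microglial products such as C1q and tumour necrosis factor also drive reactivity. Progranulin is a secreted and lysosomal protein made in the brain mostly by microglia and neurons, and its loss is known to bring gliosis.

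Gfap was about 2-fold higher in cortex of both groups without mouse Grn. The log2 fold changes of the other 8 tested reactive genes against WT lay between -0.41 and 0.65. Among animals under 310 days, with WT 1 as the lone WT library, the log2 fold change of Gfap was 0.69 in MUT and 0.52 in KO. Over all 12 libraries its fold was 2.35 in MUT and 2.16 in KO relative to WT. Only the KO against WT difference passed the test across all genes, just under the threshold, and the passing depended on how the model was set. Of the other 8 tested genes, none passed in any comparison. General astrocyte markers did not pass either.

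The libraries held 16381221 to 20782195 counts. Grn, the deleted gene, averaged 13.5 CPM in MUT and 12.8 CPM in KO, against 57.9 CPM in WT. Here CPM is the count scaled to the TMM-adjusted library total. WT 2, WT 3 and WT 4, all of 375 days, were high in markers of striatal neurons, with a mean centred log2 level of 0.70, 1.59 and 2.45, and the other 9 libraries lay between -0.83 and 0.18. MUT 1, KO 3 and WT 4 were high in choroid plexus transcripts, with 1280, 1840 and 597 CPM of Ttr, against at most 42.7 CPM elsewhere. Sex-linked transcripts were opposite to the labelled sex in all 12 libraries, which leaves the split into 6 and 6 as it is. No label names the animal or a handling batch, so the p-values cover the spread among the libraries only. Age, striatal marker level, labelled male sex and WT genotype went together in 3 of 4 WT libraries and cannot be told apart there.

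Gfap encodes the glial fibrillary acidic protein, the main intermediate filament of astrocytes, and lies on chromosome 11 (mm10) from 102887336 to 102897200 on the minus strand. Vim, which encodes vimentin, its filament partner, lies on chromosome 2. The promoters of Gfap, Steap4 and Hspb1 are shown because they held a match to the STAT motif TTCNNNGAA or the heat shock element GAANNTTC, given in capitals. Each is 250 bases before to 30 bases after the RefSeq start (GRCm38.p6), 5′ to 3′ on the strand of the gene, and all 10 genes were matched in that table.
Gfap (chr11:102897171-102897450, minus strand): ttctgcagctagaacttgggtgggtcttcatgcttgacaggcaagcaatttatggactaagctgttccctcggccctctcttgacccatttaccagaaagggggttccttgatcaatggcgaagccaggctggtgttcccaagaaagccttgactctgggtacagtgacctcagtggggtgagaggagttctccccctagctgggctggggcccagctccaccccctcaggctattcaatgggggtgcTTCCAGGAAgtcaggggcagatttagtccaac
Steap4 (chr5:7960222-7960501, plus strand): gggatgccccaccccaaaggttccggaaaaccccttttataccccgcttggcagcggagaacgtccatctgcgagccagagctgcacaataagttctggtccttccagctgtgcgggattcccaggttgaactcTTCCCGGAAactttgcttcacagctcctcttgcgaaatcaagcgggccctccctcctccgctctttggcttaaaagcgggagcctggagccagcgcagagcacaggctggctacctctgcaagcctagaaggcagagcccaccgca
Hspb1 (chr5:135887669-135887948, plus strand): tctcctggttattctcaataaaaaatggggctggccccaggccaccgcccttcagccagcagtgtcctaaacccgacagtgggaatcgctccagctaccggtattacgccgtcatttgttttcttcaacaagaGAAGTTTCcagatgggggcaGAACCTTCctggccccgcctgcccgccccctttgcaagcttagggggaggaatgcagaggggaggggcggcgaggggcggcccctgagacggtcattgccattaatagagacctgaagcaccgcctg
The STAT motif began at base -2 in Gfap and at base -116 in Steap4, counted from the start of transcription. It was found in 8.30% of the 32851 promoter windows of 300 bases in the RefSeq table, searched on both strands. The heat shock element occurred at bases -117 and -97 of Hspb1 and in 7.86% of all windows. An AP-1 pattern that allows any middle base, TGANTCA, was matched as TGATTCA in Osmr and Cp, and was found in 7.81% of all windows. The cyclic AMP element TGACGTCA (1.79% of all windows) was in none of the 10 genes, and TATAAA (13.6%) was in Vim, Cp and Steap4. These are matches of letters, with no measure of binding.

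In the structural genes, Gfap stood apart from WT in every library without mouse Grn. Gfap measured 255, 249, 303 and 216 CPM in MUT 1 to 4. It measured 263, 193, 261 and 205 CPM in KO 1 to 4, against 154, 81.7, 74.7 and 110 CPM in WT 1 to 4. The lowest MUT and KO libraries were above the highest WT library, WT 1, which was itself well above the other WT libraries and was the WT animal closest in age to MUT and KO. Mean levels were 256 ± 35.9 CPM in MUT and 231 ± 36.9 CPM in KO, against 105 ± 36.1 CPM in WT (SD, n = 4 each).

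The log2 fold change of Gfap was 1.11 in KO against WT (SE 0.20, 95% interval 0.68 to 1.55) with an edgeR quasi-likelihood adjusted p of 0.0428. With edgeR's robust option the same fold change had an adjusted p of 0.0656 and did not pass. Both outcomes had been seen when the model without that option, the one in the written design, was kept. In MUT against WT the log2 fold change was 1.23 (SE 0.21, 95% interval 0.78 to 1.68), larger than in KO but not past the threshold (edgeR adjusted p = 0.154, or 0.277 with the robust option). No difference in Gfap was shown between MUT and KO (log2 fold change 0.12, 95% interval -0.31 to 0.55, edgeR adjusted p = 0.989). Of all tested genes, 0.471% were called in KO against WT, where 1 reactive gene was called. The call rate was 0.0196% with MUT over WT and 0.00654% with MUT over KO, and 0 reactive genes were called in either. An exact two-sided permutation test of the mean log2 CPM of Gfap alone gave p = 0.0286 for KO and for MUT against WT. This is the smallest p that 4 against 4 allows, and it follows from the lack of overlap with WT. Of all tested genes, 4.29% in KO and 3.38% in MUT were likewise above WT in every library. For MUT against KO the permutation p was 0.371 (0.0429, 0.0429 and 0.371 adjusted over the 3). The permutation took no account of labelled sex or age.

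**Figure D1:**
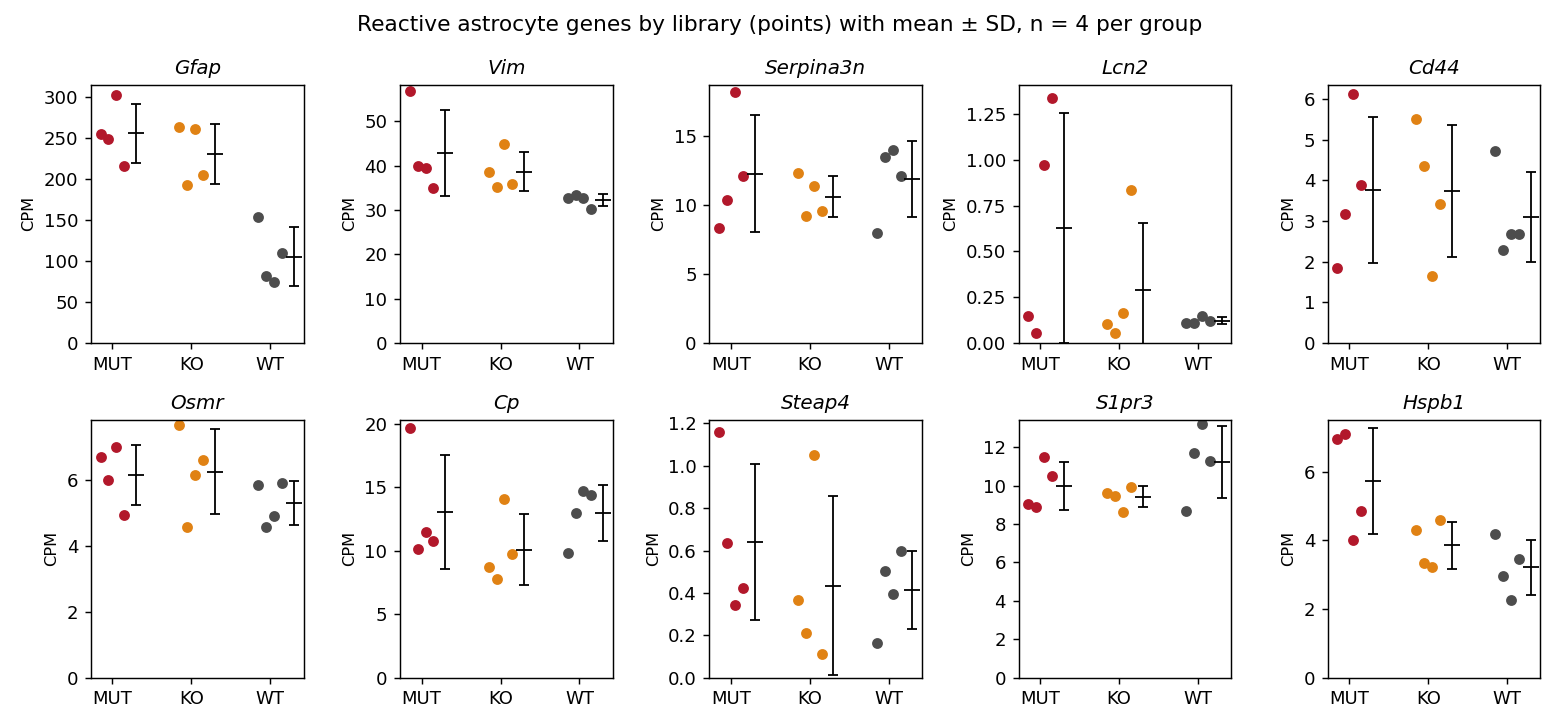
Level of each reactive gene in CPM (vertical axes, from 0) in MUT, KO and WT, with 1 point per library and the mean ± SD of 4 beside them. For Gfap all MUT and KO points lie above the highest WT point of 154 CPM, while the groups overlap for most other genes.

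The size of the Gfap difference moved with the libraries and terms in the model. Among animals under 310 days, where WT 1 is the lone WT library and is taken to vary like the other groups, the log2 fold change was 0.69 in MUT and 0.52 in KO (edgeR adjusted p = 0.876 and 0.497). With age as a further term it was 0.86 in MUT and 0.68 in KO (0.821 and 0.548), and with the striatal marker level as a term 1.07 and 0.96 (0.760 and 0.239). Without WT 1 it was 1.62 in MUT and 1.45 in KO, and both passed (0.000791 and 0.000582). That fit called 1066 genes in MUT and 1635 in KO of 15480 tested. The WT libraries left in it were all labelled male, of 375 days and high in striatal markers. The sign did not change under any of the 28 alternative models in either comparison with WT, and the KO call held in 12 of them. Leaving out any 1 of WT 2, WT 4, KO 1, KO 2, KO 3, MUT 2, MUT 3 or MUT 4 ended the KO call, with adjusted p up to 0.167. Within labelled females, Gfap was higher than in WT 1 by 0.63 in MUT (3 libraries) and by 0.59 in KO (2 libraries) on the log2 CPM scale, and within labelled males the differences were 1.79 (1 MUT and 3 WT libraries) and 1.36 (2 KO and 3 WT libraries). In WT the split by labelled sex was also the split by age and striatal marker level. The part of age and dissection in the Gfap difference was not tested beyond these values.

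**Figure D2:**
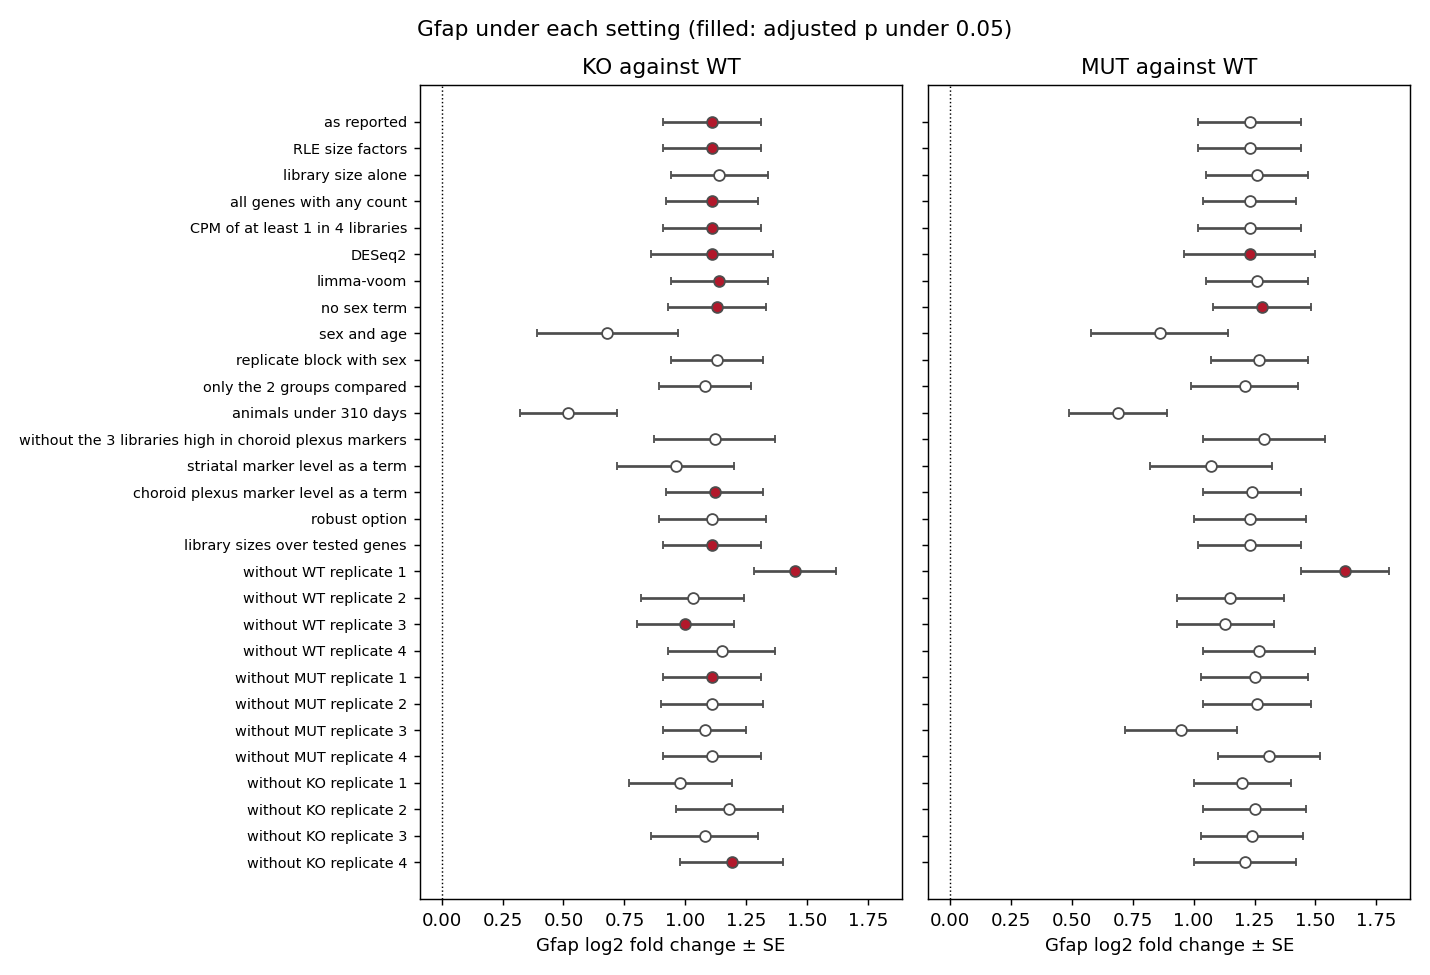
Log2 fold change of Gfap ± SE (horizontal axis) under each model setting (rows), for KO against WT at left and MUT against WT at right, with filled points where the adjusted p is under 0.05. Every point lies above 0, from 0.52 to 1.45 in KO and from 0.69 to 1.62 in MUT.

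**Figure D3:**
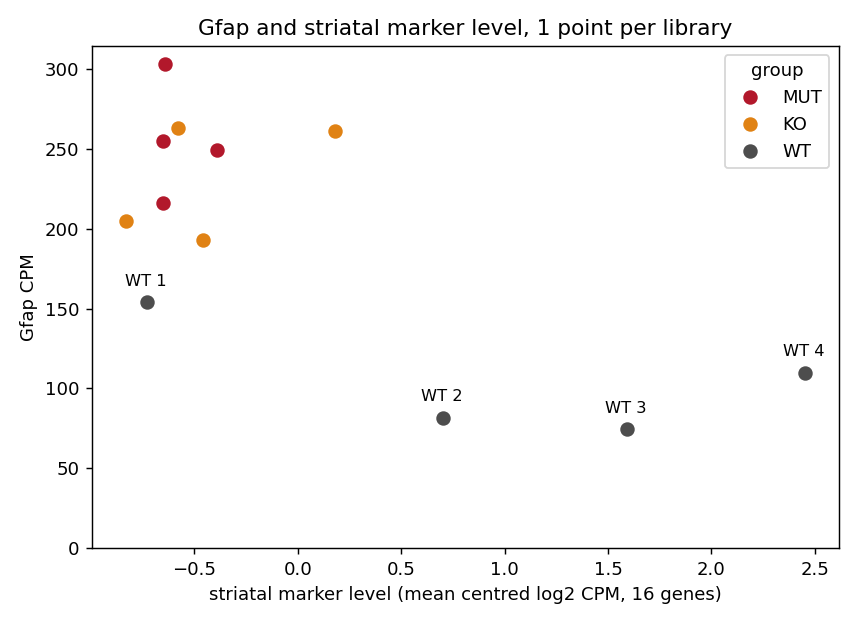
Gfap in CPM (vertical axis, from 0) against the mean centred log2 CPM of 16 striatal markers (horizontal axis), with 1 point per library of MUT, KO and WT. WT 2, WT 3 and WT 4 lie to the right at 74.7 to 110 CPM, and WT 1 lies at the striatal level of MUT and KO with 154 CPM of Gfap.

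Vimentin moved less. Vim measured 56.9, 39.9, 39.5 and 34.9 CPM in MUT 1 to 4. It measured 38.6, 35.1, 44.9 and 35.9 CPM in KO 1 to 4, against 32.6, 33.4, 32.6 and 30.3 CPM in WT 1 to 4. The groups did not overlap with WT, though the gap was narrow, and MUT 1 and KO 3, the libraries high in choroid plexus transcripts, were the highest of their groups. The log2 fold change was 0.36 in MUT (SE 0.14, edgeR adjusted p = 0.403) and 0.23 in KO (SE 0.13, adjusted p = 0.379), neither past the threshold. Without MUT 1, KO 3 and WT 4 it was 0.23 and 0.15. Gfap and Vim were the members with every library above WT in both comparisons, while 3.38% of all tested genes were so placed in MUT against WT and 4.29% in KO against WT. Between MUT and KO, 3.37% of tested genes were higher in every MUT library, and 0 members were. The exons of Vim share 649 bases with an unnamed antisense gene that held 30 counts in all.

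Hspb1 encodes the small heat shock protein HSP27, which protects filaments and is raised in stressed astrocytes. Hspb1 measured 6.96, 7.09, 4.01 and 4.86 CPM in MUT 1 to 4. It measured 4.30, 3.35, 3.21 and 4.58 CPM in KO 1 to 4, against 4.18, 2.95, 2.27 and 3.46 CPM in WT 1 to 4. MUT 1 and MUT 2 were the highest libraries, and MUT 3 lay below WT 1, so MUT and WT overlapped. Its log2 fold change of 0.65 in MUT against WT (SE 0.22) had an unadjusted p of 0.0116 and an edgeR adjusted p of 0.374. In KO it was 0.20 (SE 0.21, adjusted p = 0.667), and in MUT against KO 0.46 (SE 0.21, adjusted p = 0.862).

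Among the secreted proteins, Serpina3n, a serine protease inhibitor and a widely used marker of reactive astrocytes, did not pass the test. It measured 8.36, 10.4, 18.2 and 12.1 CPM in MUT 1 to 4. It measured 12.3, 9.17, 11.4 and 9.60 CPM in KO 1 to 4, against 7.97, 13.5, 14.0 and 12.1 CPM in WT 1 to 4. The groups overlapped throughout, and WT 1, the WT library highest in Gfap, was the lowest of all 12 in Serpina3n. The log2 fold change was 0.27 in MUT (95% interval -0.13 to 0.68) and -0.01 in KO (95% interval -0.40 to 0.38), with edgeR adjusted p of 0.605 and 0.986. Cp, the copper-binding ferroxidase ceruloplasmin, had log2 fold changes of -0.07 in MUT and -0.41 in KO (adjusted p = 0.943 and 0.411). It ranged over 10.1 to 19.7 CPM in MUT and 7.75 to 14.1 CPM in KO, against 9.84 to 14.7 CPM in WT, with MUT 1 and KO 3 at the top of their groups.

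Lcn2, the iron-siderophore carrier lipocalin 2, was too rare to be tested. It had 3, 1, 17 and 22 counts in MUT 1 to 4. It had 2, 1, 3 and 15 counts in KO 1 to 4, against 2, 2, 3 and 2 counts in WT 1 to 4. The higher counts stood in MUT 3, MUT 4 and KO 4 alone, and the remaining 9 libraries had at most 3. Neutrophils also carry Lcn2, and their 9 markers summed to 5, 5 and 2 counts in those 3 libraries, with 5, 5 and 8 markers at 0. In the remaining 9 libraries these markers summed to between 2 counts (KO 2) and 21 counts (WT 1). The source of the Lcn2 counts was not tested.

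The receptors overlapped between groups. Osmr, the oncostatin M receptor, averaged 6.14 ± 0.92 CPM in MUT and 6.24 ± 1.29 CPM in KO, against 5.30 ± 0.67 CPM in WT (SD, n = 4 each), with log2 fold changes of 0.22 and 0.24 (edgeR adjusted p = 0.676 and 0.506). Cd44, the hyaluronan receptor, ranged over 1.84 to 6.13 CPM in MUT and 1.66 to 5.51 CPM in KO, against 2.28 to 4.73 CPM in WT. MUT 1 and KO 3 were the lowest in Cd44 within their groups and WT 1 the highest of WT. Its log2 fold change was 0.39 in MUT and 0.29 in KO (adjusted p = 0.727 and 0.737). Without WT 1 it reached 1.23 in MUT and passed (adjusted p = 0.0429), in a fit that called 1066 of 15480 tested genes. S1pr3, a sphingosine 1-phosphate receptor, had -0.05 in MUT and -0.19 in KO (adjusted p = 0.899 and 0.387), and WT 1 was again the exception in WT, at 8.69 CPM against 11.3 to 13.2 CPM.

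Steap4, a metalloreductase, was near the filter's floor of 0.546 CPM. It ranged over 0.344 to 1.16 CPM in MUT and 0.112 to 1.05 CPM in KO, against 0.165 to 0.596 CPM in WT. Its log2 fold change was 0.41 in MUT (95% interval -1.09 to 1.92) and -0.07 in KO (95% interval -1.52 to 1.38). At this depth a doubling in either direction lay within both intervals.

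**Figure D4:**
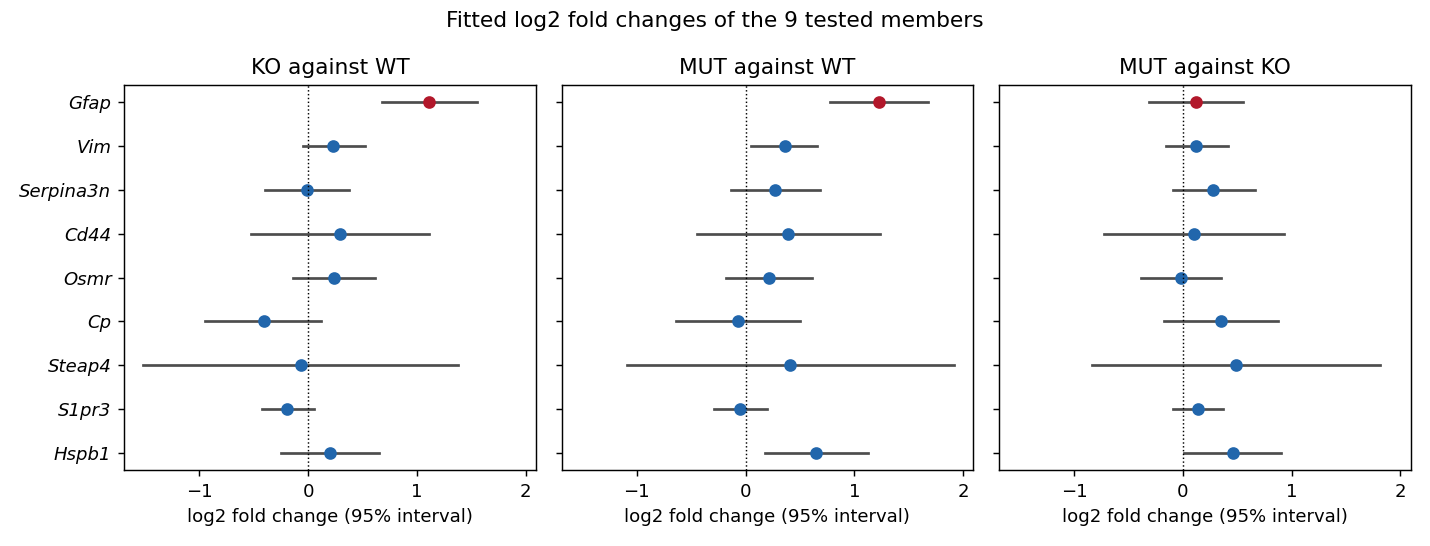
Log2 fold change with 95% interval (horizontal axis) of the 9 tested genes, with panels for KO against WT at left, MUT against WT in the middle and MUT against KO at right. Gfap (red) is at 1.11 and 1.23 against WT, and the other 8 lie between -0.41 and 0.65.

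Per length, the genes spanned a wide range. Mean RPKM over the 12 libraries was 48.4 for Gfap, 20.7 for Vim, 5.56 for Serpina3n, 4.73 for Hspb1, 2.41 for Cp, 2.28 for S1pr3, 1.22 for Osmr, 0.624 for Cd44, 0.406 for Lcn2 and 0.158 for Steap4. The median log2 fold change of the 9 tested genes was 0.36 in MUT and 0.20 in KO against WT, and 0.14 in MUT against KO, beside 0.004, 0.005 and -0.004 over all tested genes.

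Gfap starts 467 kb from Grn on chromosome 11, so it was set beside reactive genes on other chromosomes and beside its own neighbours. All 8 other tested reactive genes lie on other chromosomes. None of them was called, and their median log2 fold change was 0.32 in MUT (range -0.07 to 0.65) and 0.09 in KO (range -0.41 to 0.29). Within 1 Mb of the Gfap start, 47 other genes were tested. In KO against WT 4 of them were called, while 0.471% of all tested genes were. Grn fell (-2.20), while Adam11 (0.46, adjusted p = 0.0486), Acbd4 (0.39, 0.0337) and the antisense transcript Arhgap27os3 (4.21, 0.0338) rose by edgeR's test. In MUT against WT only Grn was called (-2.14), while Adam11 (0.41, adjusted p = 0.302), Acbd4 (0.36, 0.182) and Arhgap27os3 (3.93, 0.182) had fold changes close to those in KO. Of the 5 genes within 100 kb of Gfap, Ccdc103, Eftud2, C1ql1, Higd1b and Gjc1, none was called, and their log2 fold changes lay between -0.30 and 0.15. Apart from Grn, the median over neighbours was 0.04 in MUT and 0.07 in KO. In each comparison with WT, 12 neighbours other than Grn were under an unadjusted 0.05 by edgeR. The share of all tested genes was 11.2% in MUT and 17.9% in KO. Uncalled neighbours that moved alike in both groups included Arhgap27 (-0.52 in MUT and -0.62 in KO) and Hexim2 (0.39 and 0.42). Which strain the segment came from was not analysed here.

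**Figure D5:**
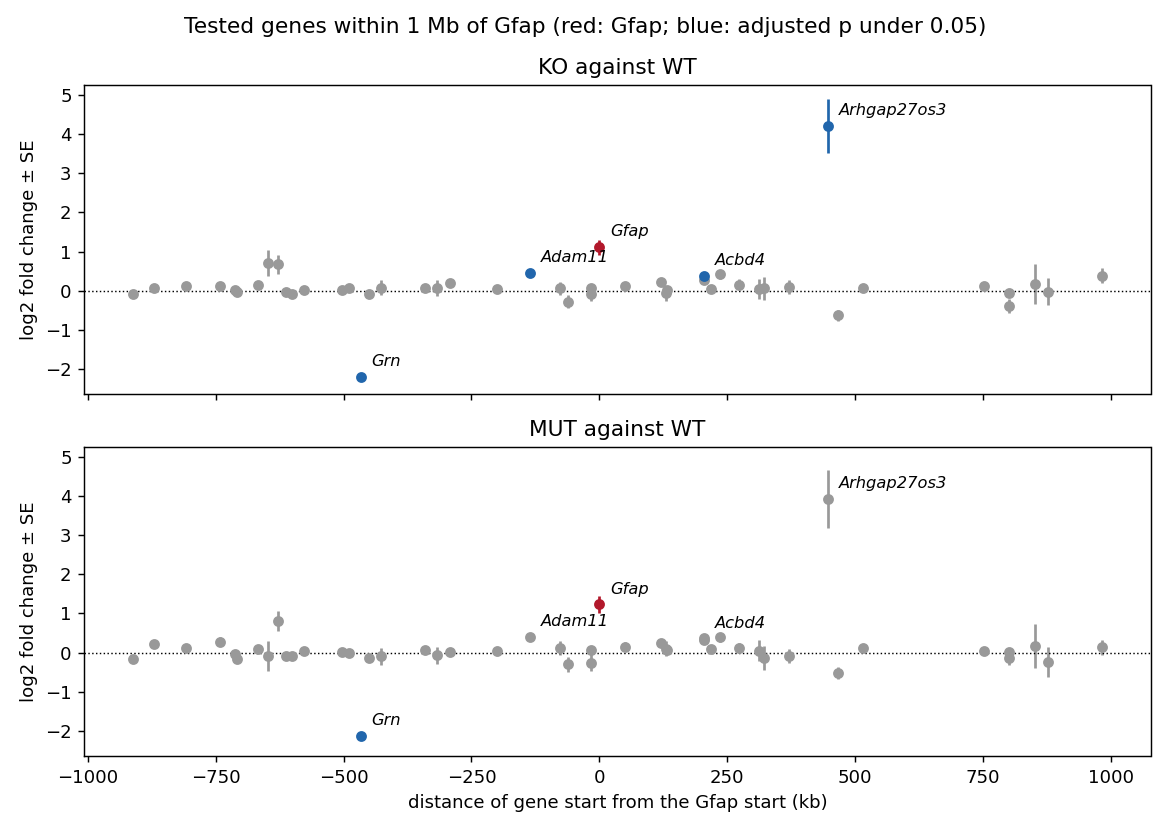
Log2 fold change ± SE (vertical axis) of tested genes by the distance of their start from the Gfap start in kb (horizontal axis), for KO against WT above and MUT against WT below. Gfap (red) is at 1.11 and 1.23, the genes nearest to it lie close to 0, and Grn is at -2.20 and -2.14.

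General astrocyte genes overlapped between the groups in their summed CPM. All 17 markers, such as Aldh1l1, Aqp4 and S100b, were tested and 0 passed in any comparison by edgeR. With no adjustment 0 were under 0.05 in MUT against WT, 3 in KO against WT and 1 in MUT against KO, while 11.2%, 17.9% and 5.75% of all tested genes were. Their median log2 fold change was 0.02 in MUT and -0.04 in KO against WT. Summed, they measured 6610 to 7070 CPM in MUT and 6380 to 6790 CPM in KO, against 6580 to 7040 CPM in WT. In bulk tissue, a change in the number of cells and a change in RNA per cell cannot be told apart.

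Markers of oligodendrocytes, the myelin-forming cells, lay in the same direction as Gfap. Of 12 tested, 11 were above 0 in MUT and 12 in KO against WT, with median log2 fold changes of 0.14 and 0.29. None was called by edgeR. With no adjustment 1 in MUT and 8 in KO were under 0.05, while 11.2% and 17.9% of all tested genes were. Summed, they measured 3970 to 4730 CPM in MUT and 4580 to 5470 CPM in KO, against 3310 to 4680 CPM in WT, with 0 of 12 markers at 0 in any library. MUT overlapped WT over most of its range, and in KO only KO 1 and KO 4 lay below the highest WT library, WT 4. The part of oligodendrocyte content in the Gfap difference was not tested.

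The signalling genes of reactivity were counted from lists of the pathway. Of the IL-6 family and STAT3 genes, 13 of 16 were tested and 0 were called in any comparison by edgeR, with 3 in MUT and 5 in KO under an unadjusted 0.05 against WT, beside the shares of all genes given above. The kinase gene Jak1 came nearest, with 207 ± 6.13 CPM in MUT and 199 ± 6.25 CPM in KO, against 230 ± 11.6 CPM in WT (log2 fold change -0.11 and -0.19, adjusted p = 0.400 and 0.0627). Il6, Cntf and Osm failed the filter.

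Of the microglial inducers, 4 of 5 were tested and 0 were called by edgeR. All 4 were above 0 in both comparisons with WT. With no adjustment 3 in MUT and 4 in KO were under 0.05, while 11.2% and 17.9% of all tested genes were. Besides Il1a, at 0.770 CPM in MUT, 0.916 CPM in KO and 0.539 CPM in WT, the tested genes were the C1q chains C1qa, C1qb and C1qc. C1qa, a chain of the complement initiator C1q, averaged 38.0 ± 1.47 CPM in MUT and 40.3 ± 1.90 CPM in KO, against 33.3 ± 2.27 CPM in WT (log2 fold change 0.22 and 0.29, adjusted p = 0.372 and 0.0520). C1qb had 0.33 in MUT and 0.27 in KO (0.326 and 0.0912). Tnf failed the filter.

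The wider reactive gene lists gave 0 calls by edgeR in each comparison. Against WT, 11.2% of all tested genes in MUT and 17.9% in KO were under an unadjusted 0.05. Of genes described as A1-type, 11 of 12 were tested, with a median log2 fold change of 0.26 in MUT and 0.02 in KO against WT, and 3 and 1 under an unadjusted 0.05. Ggta1 (0.38 and 0.35, adjusted p = 0.415 and 0.241) and Psmb8 (0.59 and 0.39, adjusted p = 0.403 and 0.385) had the smallest p in KO. Of genes described as A2-type, 9 of 12 were tested, with a median of -0.01 in MUT and -0.13 in KO and 2 and 1 under an unadjusted 0.05. S100a10 was at -0.22 in both (edgeR adjusted p = 0.374 and 0.138) and Cd109 at 0.95 and 0.96 (0.474 and 0.293). Cd109 was low, averaging 1.29 CPM in MUT and 1.31 CPM in KO, against 0.675 CPM in WT. Of other pan-reactive genes only Aspg was tested, at -0.20 in MUT and -0.29 in KO, with 0 under an unadjusted 0.05. All 9 intermediate filament partners were tested, with medians of -0.01 and -0.04 and 1 in each comparison with WT under an unadjusted 0.05, which was Plec (-0.18 and -0.14).

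Over the 12 libraries, the gene most like Gfap in log2 CPM was C4b, a complement component that reactive astrocytes and microglia produce (Pearson 0.963). It was followed by Egfem1 (0.958), Rapgef3 (0.956), Tnxb (0.955), Vwc2l (0.950), Ovgp1 (0.943) and C1ql2 (0.941). Of these, Tnxb lies close to C4b on chromosome 17. All points share library depth and the group, age and striatal split described above. In all, 31 of 15297 genes reached 0.9 and the median absolute correlation was 0.38. C4b averaged 53.6 ± 6.50 CPM in MUT and 56.8 ± 8.55 CPM in KO, against 29.6 ± 5.98 CPM in WT (SD, n = 4 each). It rose in KO against WT (log2 fold change 0.94, SE 0.15, edgeR adjusted p = 0.0317), was at 0.85 in MUT (adjusted p = 0.182), and has a near-identical copy, C4a, that may share reads. C4b was named for its likeness to Gfap in these same libraries, so its difference from WT is not a separate result. None of the other 6 named was called. With group means subtracted, the genes most like Gfap were Eea1 (0.937), Clmn (0.930), Icosl (0.930), Dbf4 (0.925) and Fryl (0.923).

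Among the reactive genes, the correlation with Gfap over the 12 libraries was 0.67 for Hspb1, 0.66 for Vim and 0.65 for Osmr, and 0.69 for Osmr once group means were subtracted. It was 0.29 for Cd44, 0.12 for Steap4, -0.14 for Serpina3n, -0.24 for Cp and -0.66 for S1pr3. With group means subtracted it was 0.40 for Hspb1, 0.32 for Cd44, 0.19 for Vim, -0.03 for Steap4, -0.11 for Cp, -0.20 for Serpina3n and -0.62 for S1pr3, and the median absolute value over all tested genes was 0.30. Differences between these correlations were not tested.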

How the data were processed

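Directional libraries were prepared from total cortex RNA, per the labels' protocols. The authors deposited the 12 libraries as a single table of raw counts by gene. The build (mm10), R 4.1.2 and DESeq2 1.34.0 are named in the submitters' processing notes. Aligner, counter and strand use: not given in the sources used here. Antisense overlaps are therefore uncertain.

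Analysis used edgeR 4.0.16 in R 4.3.3. The filterByExpr function removed low genes (count 10, total 15, by group) and TMM set the library scale. A quasi-likelihood model with a mean for each group and a term for labelled sex was fitted to all 12 libraries, with 8 residual degrees of freedom and a biological coefficient of variation of 0.101. P-values were adjusted by Benjamini-Hochberg over 15298 genes, with a threshold of 0.05. No pair of libraries agreed within sampling noise (chi-square per degree of freedom at least 3.46). RPKM used the table's exon lengths. Log2 CPM used a prior count of 2.

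The members, lists and rules were chosen with earlier results of these data known. The design names edgeR's quasi-likelihood fit with no robust option. After that fit had been seen, 8 sets of options were compared, because earlier work on the series counted 75 genes in KO where it gave 72. The robust option gave 75 and ended the Gfap call. It was used as the model for a time, then the design as written was restored, with the robust option as an alternative. Named genes are all members, called genes of each list and up to 2 others with the smallest p in KO against WT, the 8 and 5 genes most like Gfap, and called genes within 1 Mb of it. Alternatives used limma 3.58.1 (voom) and DESeq2 1.42.0. Of the promoter motifs, 5 were searched and all are reported. Some genes that the rule names are not reported here.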

Additional observations from a re-analysis of the deposited data

Results flagged for a closer look

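Within groups of 4, the gap between an extreme library and its nearest neighbour was divided by the range of the group, and values above Dixon's 95% critical value were noted. On the CPM scale 3 of 30 groups exceeded it, where chance gives about 1 in 20. These were Lcn2 in KO 4 (0.855), Cp in MUT 1 (0.853) and Cd44 in WT 1 (0.835). The ratios were first taken on log2 CPM of the 9 tested genes, where 0 of 27 groups exceeded the value, and the CPM scale with Lcn2 was chosen after that. In the 3 cases the library was the highest of its group. MUT 1 was also high in choroid plexus transcripts (Ttr 1280 CPM), and the part of that tissue in its Cp level was not tested.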

How the results depend on the processing

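The Gfap call in KO sat at the threshold. Log2 fold changes of Gfap in KO against WT where the call ended, with 0 members called, were 1.14 by library size alone (adjusted p = 0.0502), 0.68 with sex and age, 1.13 with the replicate block (0.0972), 1.08 from the 2 groups alone (0.154), 0.52 under 310 days, 1.12 without the 3 choroid-high libraries (0.144), 0.96 with the striatal term and 1.11 with the robust option (0.0656, added after the data were seen). It held with DESeq2 (1.11, 0.00145), limma-voom (1.14, 0.0392) and no sex term (1.13, 0.0243). In MUT against WT, Gfap was called, as the 1 member, with DESeq2 (1.23, 0.00565) and with no sex term (1.28, 0.0484). The exact permutation gave 1.33 (p = 0.0286). Leaving out 1 library at a time, Gfap ranged from 0.98 to 1.45 in KO with 0 to 1 members called, from 0.95 to 1.62 in MUT with 0 to 2 called, and from -0.14 (without MUT 3) to 0.22 in MUT against KO. Cause was not tested.

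The number of genes called in KO against WT was 72, 75 with the robust option, 647 with DESeq2, 313 with no sex term, 305 with the choroid term, 2 with the replicate block and 1 with the striatal term, and 1 to 1635 without 1 library. In MUT against WT it was 3, with 52 by DESeq2 and 1066 without WT 1. Replicate numbers did not pair libraries: same-numbered pairs correlated from -0.38 to 0.29, 1 of 12 was over 0.1, and 2 of 12 libraries correlated best with their own number.

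No uncalled member's sign is firm where it turned. In KO against WT, Serpina3n turned to 0.02 by library size, 0.39 with age, 0.22 under 310 days and 0.10 with the striatal term, Cd44 to -0.86, -0.92 and -0.40 under the last 3, and Steap4 to 2.0, 1.80 and 1.05, and 0.07 with no sex term. Cp turned to 0.41 with age and 0.22 under 310 days, and S1pr3 to 0.08 and 0.04. In MUT against WT, Cd44 turned to -0.55, -0.67 and -0.26 with age, under 310 days and with the striatal term, Cp to 0.62, 0.51 and 0.32, and S1pr3 to 0.18, 0.16 and 0.02. There Cp also turned to 0.01 with no sex term and 0.09 from the 2 groups, where S1pr3 was 0.02. In MUT against KO, Cd44 was 0.00 with no sex term and Osmr 0.01 with the block. Without 1 library, ranges that crossed 0 were -0.12 to 0.19 (Serpina3n) and -0.79 to 0.20 (Steap4) in KO against WT. In MUT against WT they were -0.45 to 0.80 (Steap4), -0.41 to 0.02 (Cp) and -0.17 to 0.01 (S1pr3). In MUT against KO they were -0.28 to 0.29 (Cd44), -0.14 to 0.09 (Osmr) and -0.02 to 0.21 (Vim).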
